A study of Rattus norvegicus with 6 samples.

Results

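The ephrin, semaphorin, plexin, Slit and Robo genes were taken as the rows of the deposited rat lung table whose symbol fits one of these family names, with 1 row kept per symbol. They comprised 56 genes of the 23802 in the table: 7 class 3 semaphorins, 13 semaphorins of classes 4 to 7, 9 plexins, 8 EphA and 5 EphB receptors, 5 ephrin-A and 3 ephrin-B ligands, 3 Slit ligands and 3 Robo receptors. Epha6 and Robo4, which RefSeq lists for the rat, had no row under these symbols. Polyadenylated RNA from whole lung was sequenced in 3 MCT samples and 3 control samples from male wild-type (WT) Sprague-Dawley rats of 200 to 250 g. The MCT rats had received monocrotaline, a plant alkaloid that injures the lung vessels and is used to produce pulmonary arterial hypertension, as 1 dose of 60 mg/kg. Control rats had received saline in an equal volume, and lungs were taken 4 weeks later. The labels give the MCT injection as intraperitoneal in one place and as subcutaneous in another, and the saline as subcutaneous. The labels do not say whether each sample came from 1 animal.

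Guidance genes were named for steering growing axons, and the same proteins guide and space blood vessels. Semaphorins are secreted or membrane-bound ligands of plexins, and class 3 members act with neuropilins as co-receptors. Ephrins are membrane-bound ligands of the Eph receptor tyrosine kinases and signal at cell contacts, where ephrin-B2 marks arterial and EphB4 venous endothelium. Slits are secreted ligands of the Robo receptors.

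Of the 49 guidance genes with enough reads to be tested, 5 fell and 3 rose in MCT lungs. The genes that fell were Sema3g, Efnb2, Sema6a, Efna1 and Plxnd1, and those that rose were Sema6b, Ephb1 and Epha2. The threshold was an adjusted p (Benjamini-Hochberg) of 0.05 in edgeR's quasi-likelihood test over 15250 genes. The members called made up 16.3% of those tested, beside 13.1% of all genes tested, so the overall share lay near the background. Members called lower made up 10.2%, beside 5.11% of all genes, and members called higher 6.12%, beside 8.01% of all genes. The median log2 fold change (MCT over control) was -0.12 over the 49 members and -0.01 over all genes tested. The groups did not overlap for 12 members that were lower in MCT lungs (24.5%, beside 17% of all genes). The same held for 7 members that were higher (14.3%, beside 18.4% of all genes). Together these made up 38.8% of the members tested, beside 35.4% of all genes. At an unadjusted p under 0.05 there were 22 members (44.9%), beside 30% of all genes. The count of members called higher was 1 without control replicate 2 and 1 without control replicate 3.

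**Figure D1:**
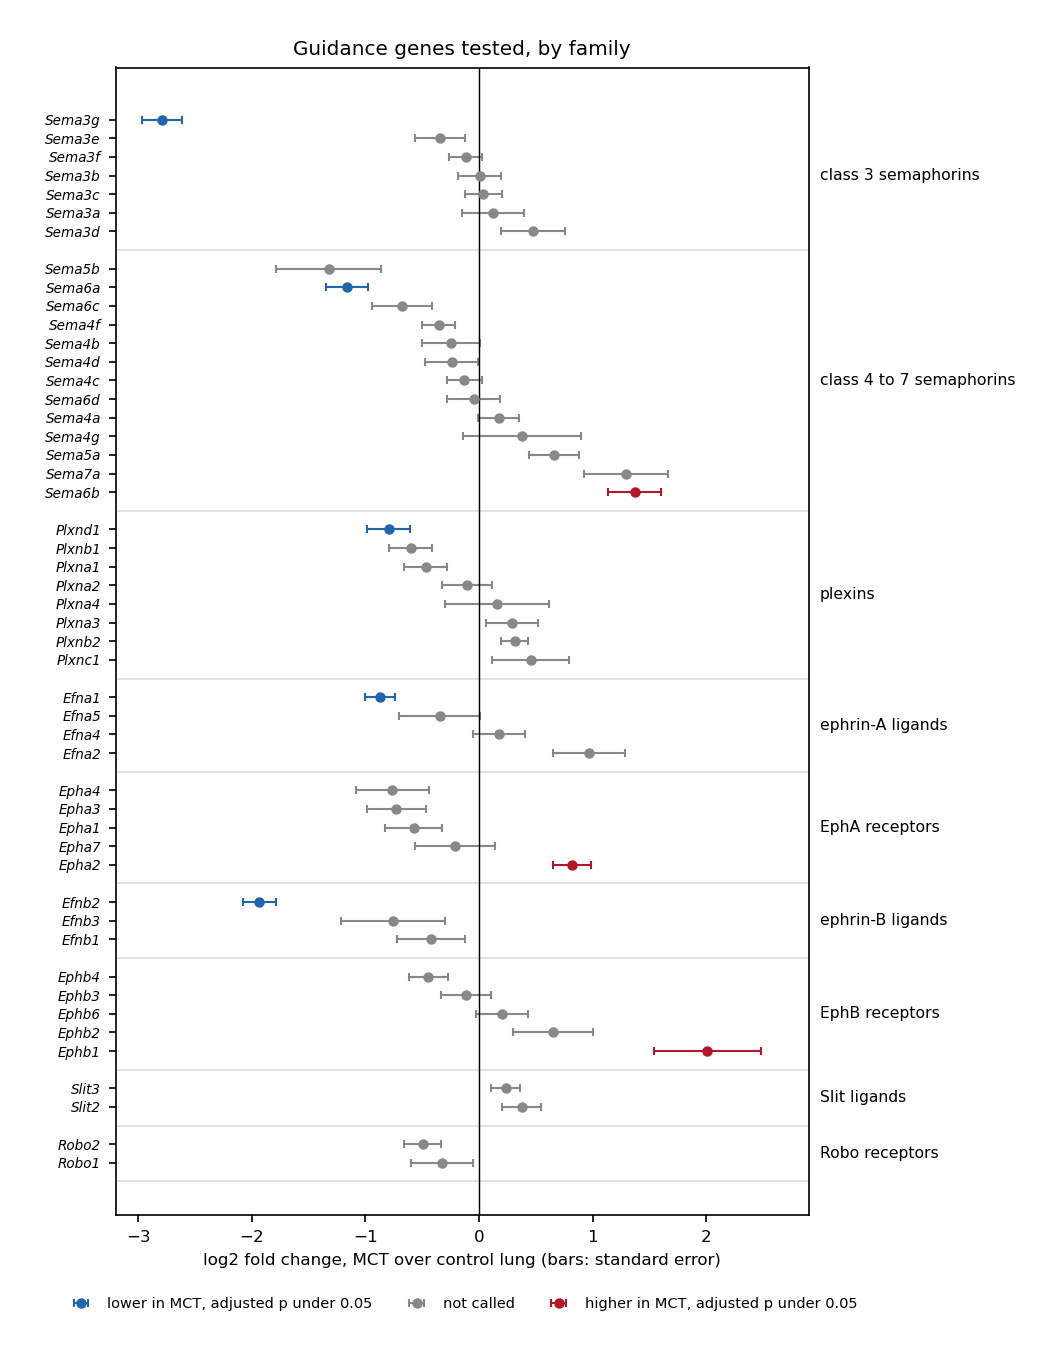
Log2 fold change of MCT over control lung (x axis) with its standard error for each of the 49 guidance genes tested, grouped by family down the page; blue points were called lower in MCT, red points higher, and grey points were not called. Sema3g at -2.79 and Efnb2 at -1.93 lie farthest to the left, and Ephb1 at 2.01 farthest to the right with the widest bar of the called genes.

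The samples held between 13525912 and 17916134 summed counts. Guidance genes took 0.283% to 0.312% of the counts in MCT samples and 0.357% to 0.365% in control samples. Lung epithelial markers were abundant in both groups, with Sftpc, the surfactant protein C gene of alveolar type 2 cells, at a mean of 8917 CPM in MCT lungs and 13396 CPM in control lungs. Levels below are TMM-normalized CPM (read counts scaled to library size) with the SD over 3 samples, and levels of different genes are compared in FPKM, which is scaled to gene length.

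The 4 genes that changed more than 2-fold and were called under all 16 processing alternatives were Sema3g, Efnb2, Sema6a and Sema6b. Their promoter windows, the 250 bases before the annotated start in RefSeq's GRCr8 table, are shown 5′ to 3′ so that the letters of the genes that carry the result can be read. Capitals mark matches on either strand to 5 short motifs, and no matches overlapped in these 4 windows. The core promoter box searched was TATAAA. The GC box, bound by Sp-family factors, was searched as GGGCGG. The CCAAT box, bound by the factor NF-Y, was searched by the letters of its name. The site of RBPJ, the factor through which Notch signals, was searched as TGGGAA. The core site of ETS factors was searched as CCGGAA.
Sema3g (chr16:6419775-6420024, plus strand): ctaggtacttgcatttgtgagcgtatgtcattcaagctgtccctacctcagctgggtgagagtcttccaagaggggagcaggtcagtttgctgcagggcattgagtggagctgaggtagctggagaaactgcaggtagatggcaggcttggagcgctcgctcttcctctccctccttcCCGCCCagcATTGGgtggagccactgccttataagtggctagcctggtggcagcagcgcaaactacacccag
Efnb2 (chr16:87484965-87485214, plus strand): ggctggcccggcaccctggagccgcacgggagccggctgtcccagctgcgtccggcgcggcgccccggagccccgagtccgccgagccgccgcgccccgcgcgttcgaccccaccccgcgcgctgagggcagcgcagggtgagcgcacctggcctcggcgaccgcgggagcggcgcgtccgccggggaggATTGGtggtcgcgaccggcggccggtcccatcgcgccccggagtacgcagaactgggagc
Sema6a (chr18:42358541-42358790, minus strand): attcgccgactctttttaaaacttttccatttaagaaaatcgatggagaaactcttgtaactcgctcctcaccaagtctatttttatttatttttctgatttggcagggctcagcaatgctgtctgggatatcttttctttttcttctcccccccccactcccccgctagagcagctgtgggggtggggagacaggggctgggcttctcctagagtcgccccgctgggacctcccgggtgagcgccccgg
Sema6b (chr9:1047743-1047992, minus strand): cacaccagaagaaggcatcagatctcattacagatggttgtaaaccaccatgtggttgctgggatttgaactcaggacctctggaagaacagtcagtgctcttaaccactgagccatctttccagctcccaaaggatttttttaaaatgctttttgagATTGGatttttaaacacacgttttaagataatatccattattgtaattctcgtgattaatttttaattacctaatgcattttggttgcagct
The Sema3g window held a minus-strand GC box 72 to 67 bases before the start and a minus-strand CCAAT box 63 to 59 bases before the start. The Efnb2 window held a minus-strand CCAAT box 60 to 56 bases before the start, and the Sema6b window one 92 to 88 bases before it. The Sema6a window held none of the 5 motifs. Among the windows of the 8 called genes, 4 held a CCAAT box and 4 a GC box, while 0 held the TATA, RBPJ or ETS letters. Over 27457 promoter windows of the same length, 34.3% held the CCAAT box, 32.4% the GC box, 21.6% the RBPJ site, 13.4% the ETS site and 13.1% the TATA box. The share of G and C was 56.8% for Sema3g, 80.4% for Efnb2, 52.0% for Sema6a and 37.2% for Sema6b, with a median of 52.0% over all windows. A match of letters is a description and not evidence of binding, and the table covered 44 of the 56 members.

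Among the secreted class 3 semaphorins, 1 of 7 tested members fell, 0 rose and 6 were not called. Sema3g, a class 3 semaphorin made by arterial endothelium in mouse, stood at 40.3, 58.5 and 41.2 CPM in MCT replicates 1 to 3, against 301, 315 and 354 CPM in control replicates 1 to 3. Every MCT sample lay far below every control. Sema3g (ENSRNOG00000018952) averaged 46.7 ± 10.2 CPM in MCT lungs and 324 ± 27.7 CPM in control lungs (SD, n = 3 each), a 6.93-fold lower level (log2 fold change -2.79, SE 0.18, adjusted p = 0.000457). In whole lung, fewer cells of a type and less RNA per cell cannot be told apart. On the FPKM scale Sema3g made up 5.99% ± 0.566 of the class's summed level in MCT lungs and 30.4% ± 2.28 in control lungs (SD, n = 3 each).

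Sema3c, a secreted semaphorin known for its part in heart outflow and vessel development, was the most abundant class 3 member by FPKM. It stood at 471, 519 and 389 CPM in MCT replicates 1 to 3, against 442, 515 and 385 CPM in control replicates 1 to 3, and the groups overlapped. Its log2 fold change was 0.04 (SE 0.16, adjusted p = 0.904), and the sign turned without MCT replicate 2 and without control replicate 3 (-0.06 in both). Sema3b, Sema3f, Sema3e, Sema3a and Sema3d also overlapped between the groups, with log2 fold changes from -0.34 for Sema3e to 0.48 for Sema3d. Sema3e, the ligand that binds Plxnd1 without a neuropilin, averaged 68.8 ± 5.45 CPM in MCT lungs and 87.1 ± 28.1 CPM in control lungs (SD, n = 3 each). The summed FPKM of the class was 202 ± 22.6 in MCT lungs and 280.2 ± 11.02 in control lungs (SD, n = 3 each). Most of this difference lay in Sema3g, which averaged 12.2 FPKM in MCT lungs and 85.4 FPKM in control lungs. The median log2 fold change of the class was 0.01.

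Semaphorins of classes 4 to 7 are membrane-bound, and 1 of 13 tested members fell, 1 rose and 11 were not called. Sema6a, a transmembrane semaphorin that binds A-type plexins, stood at 11.3, 12.3 and 8.97 CPM in MCT replicates 1 to 3, against 20.2, 25.1 and 27.8 CPM in control replicates 1 to 3. Sema6b, its close relative and a ligand of Plxna4, moved the other way, with 31.8, 26.7 and 24.4 CPM in MCT replicates 1 to 3, against 11.8, 13.3 and 7.17 CPM in control replicates 1 to 3. The groups did not overlap for either gene. Sema6a (ENSRNOG00000004033) was 2.24-fold lower in MCT lungs (log2 fold change -1.16, SE 0.19, adjusted p = 0.007445). Sema6b (ENSRNOG00000045998) was 2.58-fold higher (log2 fold change 1.37, SE 0.23, adjusted p = 0.00936). Of the other class 6 members, Sema6c was lower in every MCT sample but not called (-0.68 on the log2 scale, adjusted p = 0.125), and Sema6d overlapped (-0.05, adjusted p = 0.914).

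Sema7a, a lipid-anchored semaphorin that binds integrin beta 1 and Plxnc1, lay just outside the threshold. It stood at 166, 74.2 and 107 CPM in MCT replicates 1 to 3, against 72.1, 40.4 and 29.2 CPM in control replicates 1 to 3. The lowest MCT sample was just above the highest control. Its log2 fold change was 1.29 (SE 0.37, adjusted p = 0.0518). It was called in 6 of 16 alternatives, among them DESeq2 (adjusted p = 0.00215). Leaving out control replicate 1 gave 1.74 (adjusted p = 0.0252), and leaving out MCT replicate 2 gave 1.53 (adjusted p = 0.0256). Over all alternatives its adjusted p ran from 0.00215 to 0.162.

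Sema4a, a semaphorin known from immune cells, was the most abundant of classes 4 to 7 by FPKM. It stood at 167, 141 and 195 CPM in MCT replicates 1 to 3, against 116, 168 and 163 CPM in control replicates 1 to 3. The groups overlapped (log2 fold change 0.17, SE 0.18, adjusted p = 0.563). Sema4d, the T cell semaphorin also called CD100, averaged 10.1 ± 2.63 CPM in MCT lungs and 12.0 ± 1.95 CPM in control lungs (SD, n = 3 each), and the groups overlapped. Sema4b, Sema4c, Sema4f and Sema4g were not called, with log2 fold changes from -0.36 for Sema4f to 0.38 for Sema4g. Sema4g stood at 12.6 CPM in MCT replicate 1 and at 2.67 and 4.203 CPM in MCT replicates 2 and 3. Sema5a, a transmembrane semaphorin with thrombospondin repeats, overlapped between the groups in edgeR's values (0.66 on the log2 scale, adjusted p = 0.0861), and DESeq2 put it past the threshold (adjusted p = 0.0379). Its relative Sema5b, at 6 to 27 counts per sample, was lower in every MCT sample than in every control (log2 fold change -1.32, adjusted p = 0.0971).

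Among the plexins, the receptors of semaphorins, 1 of 8 tested members fell, 0 rose and 7 were not called. Plxnd1, the endothelial receptor of Sema3e, stood at 81.8, 72.8 and 64.2 CPM in MCT replicates 1 to 3, against 91.7, 137 and 151 CPM in control replicates 1 to 3. The groups did not overlap, but control replicate 1 lay close to the MCT samples. Plxnd1 (ENSRNOG00000025209) was 1.73-fold lower in MCT lungs (log2 fold change -0.79, SE 0.19, adjusted p = 0.0293). The call ended without MCT replicate 2 (-0.79, adjusted p = 0.0521), MCT replicate 3 (-0.70, adjusted p = 0.105), control replicate 2 (-0.73, adjusted p = 0.0996) or control replicate 3 (-0.64, adjusted p = 0.108). It also ended on the 3 FPKM scales (adjusted p = 0.0511 to 0.0694).

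Plxnb2, a receptor of class 4 semaphorins, was the most abundant plexin by FPKM. It stood at 334, 326 and 345 CPM in MCT replicates 1 to 3, against 264, 288 and 257 CPM in control replicates 1 to 3. All MCT samples lay above all controls, with a small difference that was not called (log2 fold change 0.31, SE 0.11, adjusted p = 0.110; DESeq2 adjusted p = 0.0383). Plxnb1, the receptor of Sema4d, was lower in every MCT sample but not called (log2 fold change -0.60, adjusted p = 0.0718), and DESeq2 called it (adjusted p = 0.0314). Plxna1 overlapped between the groups (-0.47 on the log2 scale, adjusted p = 0.139), but leaving out control replicate 1 put it past the threshold (-0.65, adjusted p = 0.0388). Plxna2, Plxna3, Plxna4 and Plxnc1 overlapped between the groups, with log2 fold changes from -0.11 for Plxna2 to 0.45 for Plxnc1.

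Of 7 ephrin ligands tested, 2 fell, 0 rose and 5 were not called. Efnb2, the gene of ephrin-B2, stood at 90.8, 73.7 and 75.7 CPM in MCT replicates 1 to 3, against 338, 265 and 314 CPM in control replicates 1 to 3. Efna1, a lipid-anchored ligand of Epha2 and the most abundant ephrin by FPKM, stood at 80.7, 89.0 and 103 CPM in MCT replicates 1 to 3, against 148, 181 and 169 CPM in control replicates 1 to 3. Neither gene overlapped between the groups. Efnb2 (ENSRNOG00000014648) was 3.82-fold lower in MCT lungs (log2 fold change -1.93, SE 0.15, adjusted p = 0.000593), with means of 80.1 ± 9.33 CPM in MCT lungs and 306 ± 37.4 CPM in control lungs (SD, n = 3 each). Efna1 (ENSRNOG00000020573) was 1.83-fold lower (log2 fold change -0.87, SE 0.14, adjusted p = 0.00650).

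The summed FPKM of the ephrin-B ligands was 53.8 ± 10.6 in MCT lungs and 119 ± 17.8 in control lungs, and that of the ephrin-A ligands 68.5 ± 6.71 in MCT lungs and 116 ± 12.3 in control lungs (SD, n = 3 each). Within the ephrin-B ligands Efnb2 made up 36.2% ± 10.2 of the summed FPKM in MCT lungs and 61.0% ± 8.26 in control lungs (SD, n = 3 each). Efnb1 overlapped between the groups, with 80.2, 160 and 102 CPM in MCT replicates 1 to 3, against 204, 156 and 99.8 CPM in control replicates 1 to 3 (log2 fold change -0.42, adjusted p = 0.391). Of the less abundant ephrins, Efna2 was higher in every MCT sample but not called (log2 fold change 0.97, adjusted p = 0.0805, 23 to 67 counts per sample). Efna4 differed by 0.18, Efna5 by -0.35 and Efnb3 by -0.76 on the log2 scale, and none of these was called.

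**Figure D2:**
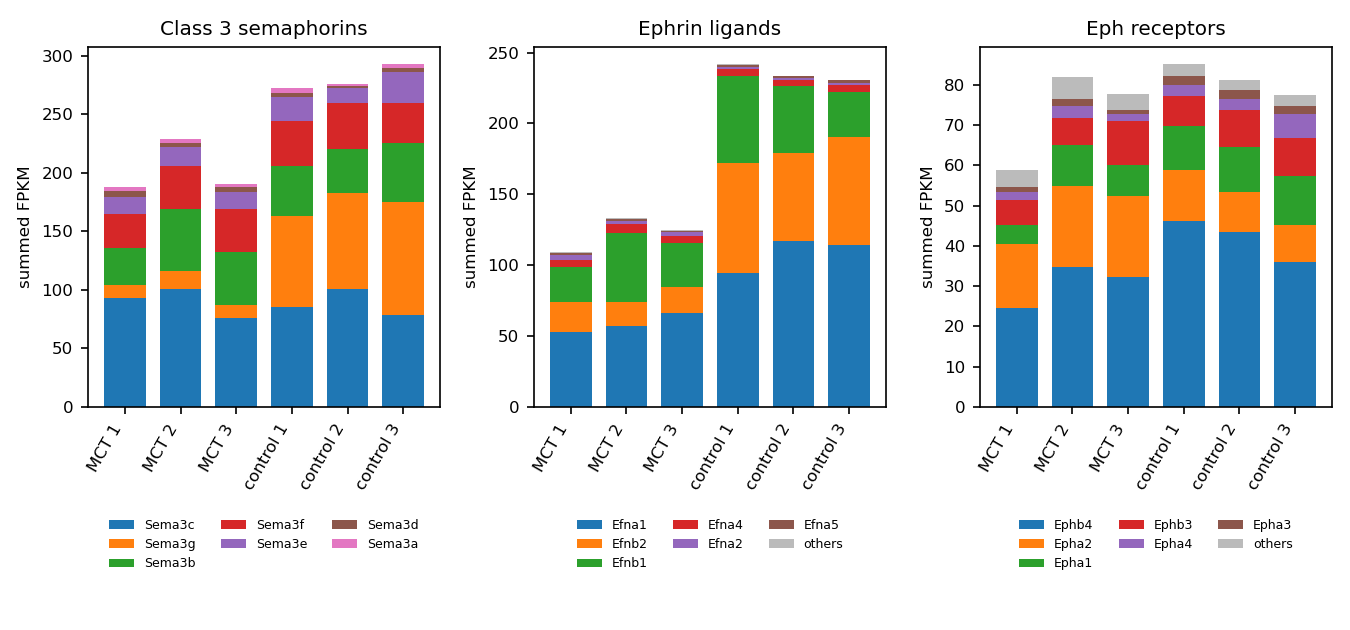
Summed FPKM (y axis) of the class 3 semaphorins, the ephrin ligands and the Eph receptors in each lung sample (x axis), stacked by gene, with the members beyond the 6 most abundant drawn together as others in the ephrin and Eph panels. The Sema3g band was 5.99% of its class in MCT lungs and 30.4% in control lungs on average, and the Efnb2 and Efna1 bands were thinner in every MCT sample than in every control sample.

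The Eph receptors showed no fall that passed the test: of 10 tested, 2 rose, 0 fell and 8 were not called. Epha2, a receptor of ephrin-A1 in epithelium and endothelium, stood at 61.8, 79.7 and 79.0 CPM in MCT replicates 1 to 3, against 50.7, 38.9 and 35.4 CPM in control replicates 1 to 3. The groups did not overlap, and Epha2 (ENSRNOG00000009222) was 1.77-fold higher in MCT lungs (log2 fold change 0.82, SE 0.17, adjusted p = 0.0173). This call ended without MCT replicate 3 (0.77, adjusted p = 0.0592), control replicate 2 (0.78, adjusted p = 0.0704) or control replicate 3 (0.72, adjusted p = 0.0732). Epha2 made up 61.7% ± 4.37 of the summed EphA FPKM in MCT lungs and 37.2% ± 6.21 in control lungs (SD, n = 3 each).

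Epha1, Epha3, Epha4 and Epha7 all had negative log2 fold changes, from -0.76 for Epha4 to -0.21 for Epha7, and none was called. Epha1 stood at 15.1, 33.5 and 25.5 CPM in MCT replicates 1 to 3, against 36.1, 36.6 and 37.8 CPM in control replicates 1 to 3, without overlap (log2 fold change -0.57, adjusted p = 0.165). Without MCT replicate 2, both Epha1 (-0.86, adjusted p = 0.0385) and Epha3 (-1.05, adjusted p = 0.0196) were called lower.

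Ephb1, a receptor of B-type ephrins, was a low-abundance gene with the largest rise among the members. It stood at 5.02, 13.8 and 5.95 CPM in MCT replicates 1 to 3, against 3.13, 1.34 and 1.67 CPM in control replicates 1 to 3, resting on 74 to 232 counts per MCT sample and 18 to 47 per control. The groups did not overlap, and MCT replicate 2 stood apart from the other two. Ephb1 (ENSRNOG00000007865) was 4.03-fold higher in MCT lungs (log2 fold change 2.01, SE 0.47, adjusted p = 0.0280). Without MCT replicate 2 the log2 fold change was 1.42 and the call ended (adjusted p = 0.0510), and without MCT replicate 1, MCT replicate 3 or control replicate 1 the call held. The call also ended without control replicate 2 (1.79, adjusted p = 0.101) or control replicate 3 (1.88, adjusted p = 0.107). On the log2(FPKM + 1) scale the difference was 0.89 and the call ended (adjusted p = 0.0507), and on log2(FPKM + 0.1) it was 1.72, past the threshold with the filter on low counts (adjusted p = 0.0374) and not without it (adjusted p = 0.0605).

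Ephb4, the venous receptor of ephrin-B2, was the most abundant Eph receptor by FPKM. It stood at 99.1, 142 and 131 CPM in MCT replicates 1 to 3, against 191, 177 and 140 CPM in control replicates 1 to 3. MCT replicate 2 lay just above the lowest control, and the difference was not called (log2 fold change -0.45, SE 0.17, adjusted p = 0.123). Ephb2, Ephb3 and Ephb6 overlapped between the groups, with log2 fold changes from -0.12 for Ephb3 to 0.65 for Ephb2.

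**Figure D3:**
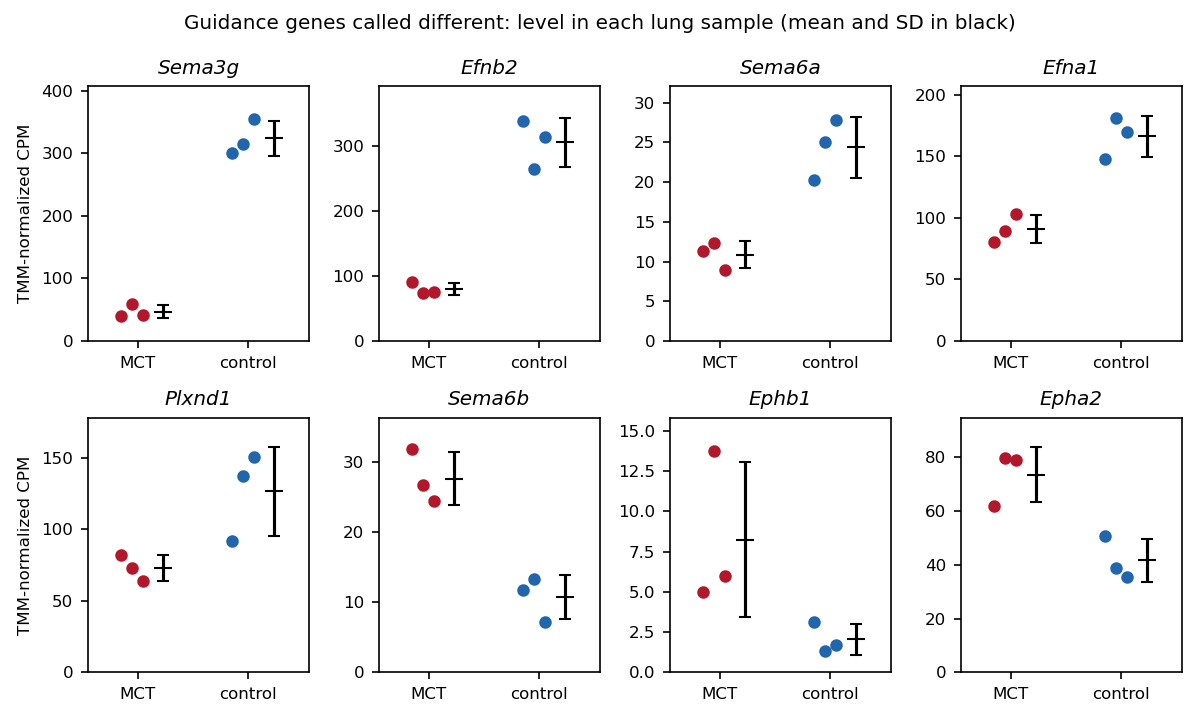
TMM-normalized CPM (y axis, from 0) of the 8 called guidance genes in each MCT (red) and control (blue) lung sample, with the mean and SD of each group in black. The groups do not overlap in any panel. Ephb1 in MCT replicate 2, at 13.8 CPM, stands apart from the other MCT samples.

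Of the 4 Slit and Robo genes tested, 0 were called by edgeR, 0 by DESeq2 and 0 by limma-voom, and 1 had an unadjusted p under 0.05 in edgeR. Robo4 had no row, so these counts do not cover it. Slit2, a secreted ligand that also acts on endothelial cells, was the more abundant Slit by FPKM and stood at 103, 94.8 and 72.7 CPM in MCT replicates 1 to 3, against 79.5, 55.9 and 73.0 CPM in control replicates 1 to 3. The groups overlapped (log2 fold change 0.37, SE 0.17, adjusted p = 0.187). Slit3 was higher in every MCT sample than in every control, by a log2 fold change of 0.23 that was not called (adjusted p = 0.251). Robo2, a Slit receptor, stood at 17.2, 22.5 and 17.0 CPM in MCT replicates 1 to 3, against 26.0, 29.6 and 24.5 CPM in control replicates 1 to 3. Its groups did not overlap, but it was not called (log2 fold change -0.50, SE 0.16, adjusted p = 0.0777), except without MCT replicate 2 (-0.64, adjusted p = 0.0328). Robo1, at 35 to 63 counts per sample, was also lower in every MCT sample and not called (-0.33 on the log2 scale, adjusted p = 0.470). A further locus assembled from the reads, whose deposited description names the mouse ROBO1 protein and whose symbol is not in the rat spelling, held 70 to 125 counts per sample and overlapped between the groups (-0.41 on the log2 scale, adjusted p = 0.303).

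Ratios of ligand to receptor FPKM within each sample are given as a description with no test, and the 9 pairs were chosen after their values were seen. The Efna1 to Epha2 ratio was 3.32, 2.85 and 3.31 in MCT replicates 1 to 3, against 7.42, 11.9 and 12.2 in control replicates 1 to 3. The Efnb2 to Ephb4 ratio was 0.874, 0.494 and 0.550 in MCT replicates 1 to 3, against 1.69, 1.43 and 2.13 in control replicates 1 to 3. In every MCT sample Ephb4 was thus above its ligand per length, and in every control sample below it. The Slit2 to Robo2 ratio averaged 5.61 ± 0.931 in MCT lungs and 3.09 ± 0.877 in control lungs (SD, n = 3 each), without overlap. The Sema3e to Plxnd1 ratio overlapped, with 1.30 ± 0.178 in MCT lungs and 0.987 ± 0.414 in control lungs (SD, n = 3 each).

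**Figure D4:**
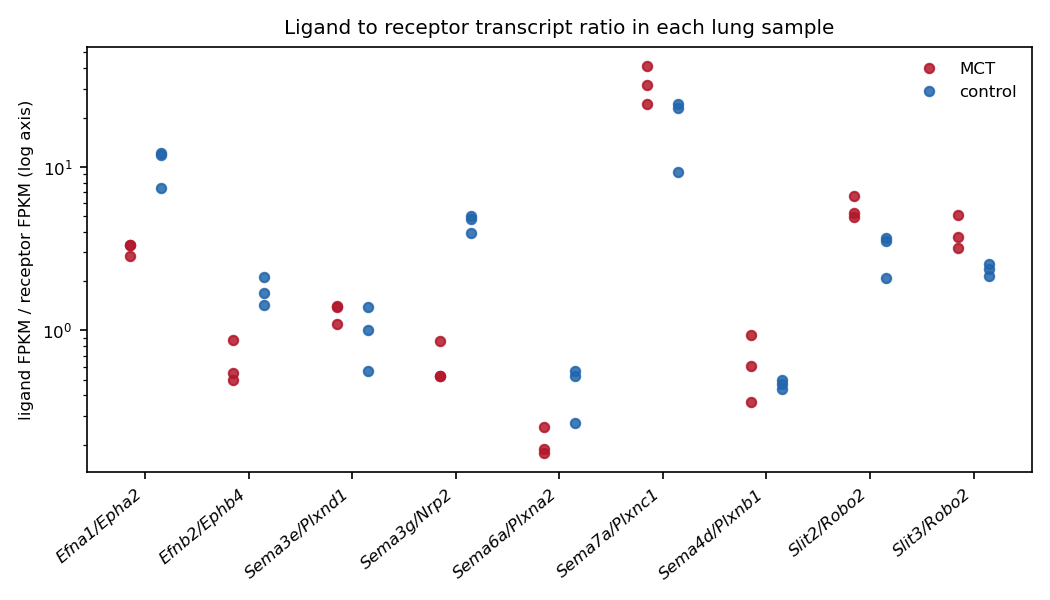
Ratio of ligand FPKM to receptor FPKM (y axis, log scale) for 9 ligand and receptor pairs (x axis) in each MCT (red) and control (blue) lung sample. The ratios for Efna1 over Epha2, Efnb2 over Ephb4, Sema3g over Nrp2 and Sema6a over Plxna2 were lower in every MCT sample than in every control sample. Those for Sema7a over Plxnc1, Slit2 over Robo2 and Slit3 over Robo2 were higher, and the other pairs overlapped. Sema7a over Plxnc1 was nearly tied, at 24.3 in MCT replicate 2 and 24.0 in control replicate 1, and Plxnc1 stood at only 0.67 to 2.02 FPKM.

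Co-receptors and downstream partners of these families were followed in 5 lists of 81 genes, of which 71 were tested, 5 rose and 2 fell. Of all genes tested, 13.1% were called, 8.01% higher and 5.11% lower. These shares are the background for the counts of each list below. Of 8 tested semaphorin co-receptors, 1 rose and 1 fell. Cd72, a B cell receptor of Sema4d, averaged 22.2 ± 3.01 CPM in MCT lungs and 9.24 ± 2.93 CPM in control lungs (SD, n = 3 each; log2 fold change 1.27, adjusted p = 0.0155), a call that ended without MCT replicate 3 (1.19, adjusted p = 0.0512). Met, the hepatocyte growth factor receptor, which pairs with B-type plexins, averaged 16.5 ± 4.10 CPM in MCT lungs and 30.1 ± 1.28 CPM in control lungs (SD, n = 3 each; log2 fold change -0.86, adjusted p = 0.0195). That call ended without MCT replicate 1 (-0.79, adjusted p = 0.0614), control replicate 2 (-0.89, adjusted p = 0.0609) or control replicate 3 (-0.83, adjusted p = 0.0777). The neuropilin gene Nrp1 was not called (-0.62, adjusted p = 0.0793), and Nrp2 had a log2 fold change of 0.06.

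Of 21 tested plexin and semaphorin effectors, 3 rose and 0 fell. Fes, a tyrosine kinase, rose by 0.75 (log2, adjusted p = 0.00749) and was called under all 16 alternatives. Gipc1, an adaptor that binds plexin tails, rose by 0.69 (log2, adjusted p = 0.0174), a call that ended when any 1 control was left out (0.65, 0.69 and 0.74 for controls 1 to 3, with adjusted p-values of 0.0510, 0.0647 and 0.0560). Of 19 tested Eph and ephrin effectors 1 rose: Chn2, a chimaerin that inactivates Rac, by 0.74 (log2, adjusted p = 0.0359). The call held without MCT replicate 1 and ended when any other sample was left out (0.54 without MCT replicate 2 and 0.83 without MCT replicate 3, against 0.73 to 0.75 without a control; adjusted p = 0.0597 to 0.110). Of 14 tested Slit and Robo partners 1 fell: Flrt3, a membrane protein that binds Robo1, by 0.84 (log2, adjusted p = 0.0349). Flrt3 was called in 8 of 16 alternatives, and not without MCT replicate 1 (-0.75, adjusted p = 0.105), MCT replicate 3 (-0.77, adjusted p = 0.114), control replicate 2 (-0.93, adjusted p = 0.0683) or control replicate 3 (-0.58, adjusted p = 0.106). In the netrin, DCC, Unc5, neogenin and RGM list, a separate guidance system, 9 of 16 genes were tested. Of these, 0 were called by edgeR, 0 by limma-voom and 2 by DESeq2, and 4 had an unadjusted p under 0.05 in edgeR. Over all 71 partners the median log2 fold change was -0.04.

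Of the general endothelial markers 6 of 15, and of the arterial ones 4 of 7, were called lower in MCT lungs. Lymphatic endothelial and smooth muscle markers, given below, mostly were not. In a list of 15 endothelial markers, 6 fell and 0 rose, with a median log2 fold change of -0.45. Their summed level was 2671, 4727 and 3134 CPM in MCT replicates 1 to 3, against 5092 to 5685 CPM in control samples. MCT replicate 2 also stood highest for Pecam1 (175, 446 and 272 CPM in MCT replicates 1 to 3) and Vwf (304, 599 and 324 CPM). Controls held 219 to 308 CPM of Pecam1 and 368 to 435 CPM of Vwf. The Pecam1 row was a locus assembled from the reads. In a list of 7 arterial endothelial markers, 4 fell and 1 rose, with a median of -0.98 and a summed level of 308 to 469 CPM in MCT samples and 489 to 498 CPM in control samples. No marker of either list was at 0. Of the endothelial calls, those of Tek, Ptprb and Calcrl held under all 16 alternatives, and so did the arterial calls of Dll4, Hey1 and Sox17, while those of Cdh5, Flt1, Erg, Gja4 and Cxcl12 each ended in 4 to 10 of them. Among the 15 endothelial markers the log2 fold changes ran from -2.38 for Tek to 0.32 for Emcn, with Calcrl at -2.11, Ptprb at -1.53, Vwf at 0.00 and Pecam1 at 0.17. The log2 fold changes of those not called ran from -0.58 for Kdr to 0.32 for Emcn. Among the 7 arterial markers they ran from -1.78 for Hey1 to 1.16 for Cxcl12, with Dll4 at -1.74. The arterial marker Gja5 was higher in every MCT sample than in every control but not called (0.63, edgeR adjusted p = 0.0528). Sema3g was at -2.79 and Efnb2 at -1.93 on the same scale. The part of these markers in the falls of Sema3g, Efnb2, Sema6a, Efna1 and Plxnd1 was not tested.

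Markers of several other cell types were higher in MCT lungs beside the guidance genes that rose, and those of others were lower, mixed or not called. Of 8 tested macrophage markers 6 rose, with a summed level of 804 to 1107 CPM in MCT samples and 444 to 541 CPM in control samples, and Marco was below the filter. Of 9 smooth muscle markers 5 rose (1270 to 1898 CPM in MCT samples and 934 to 1093 CPM in control samples). All 7 markers of dividing cells rose (236 to 276 CPM in MCT samples and 65.6 to 73.1 CPM in control samples). Of 7 mast cell markers 6 rose and 1 fell (499 to 1474 CPM in MCT samples and 213 to 266 CPM in control samples). Kit, the marker that fell, made up most of the control sum, at 179, 238 and 218 CPM in control replicates 1 to 3. Of 7 tested lymphatic endothelial markers 5 rose and 1 fell (1209 to 1522 CPM in MCT samples and 584 to 810 CPM in control samples), with Stab2 below the filter. Lyve1 was the marker that fell (log2 fold change -0.72). Pdpn, not called, held much of the control sum, at 447, 295 and 542 CPM in control replicates 1 to 3. Ccl21 averaged 601 CPM in MCT lungs and 64.2 CPM in control lungs. Of 3 tested neuron and Schwann cell markers 0 were called (7.80 to 12.7 CPM in MCT samples and 10.6 to 15.3 CPM in control samples). Of 6 neutrophil markers only Lcn2, which epithelium also makes, rose, at 2523, 724 and 1450 CPM in MCT replicates 1 to 3, against 86.9, 145 and 49.8 CPM in control replicates 1 to 3. The other 5 summed to 595, 71.0 and 51.1 CPM in MCT replicates 1 to 3, against 49.1, 61.7 and 32.8 CPM in control replicates 1 to 3, so that only MCT replicate 1 stood apart. Of 8 alveolar type 2 markers 3 fell and 0 rose, with a median log2 fold change of -0.59. They summed to 14520 to 24041 CPM in MCT samples and 25595 to 27659 CPM in control samples. Of 8 alveolar type 1 markers 1 fell and 0 rose (median -0.47). These summed to 4017 to 7541 CPM in MCT samples and 6462 to 7989 CPM in control samples. Of 7 mesothelial markers 5 fell and 0 rose, with a median log2 fold change of -2.75. Of 8 tested T and NK cell markers 4 fell and 0 rose (median -0.89). The 6 tested B and plasma cell markers were mixed, with 3 lower and 2 higher, as were the 12 fibroblast markers, with 3 higher and 2 lower. Among 8 pericyte markers 1 rose and 0 fell. No marker tested in these lists was at 0 throughout. The part of these cells in the rises of Sema6b, Ephb1 and Epha2 was not tested.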

How the data were processed

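Whole-lung polyA RNA was measured in 3 MCT and 3 control samples, grouped by sample title. The deposited table holds estimated counts and FPKM values per gene, both made by the authors, per the file headers. Bowtie2, TopHat2 2.0.3.12 and Rnor_6.0 are named, per the submitters' processing notes. No source used here gives the counting tool or says whether libraries keep strand, so reads of genes that overlap on opposite strands may be mixed. Estimated counts were rounded and tested with edgeR 4.0.16 (R 4.3.3; quasi-likelihood, TMM, filterByExpr at a minimum count of 10 and total of 15), on 15250 genes, with Benjamini-Hochberg adjustment over all of them. The standard error is the log2 fold change divided by the root of F. Replicates of 1 group were never as alike as counting error alone would make them (chi-square per degree of freedom 22.1 to 49.7). Whether samples are separate animals is not labelled, so the p-values may rest on technical spread only. The code was tested on simulated data.

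Of 2 rows named Plxnb1 the one with more reads was kept. Members with full values were all called genes and the most abundant tested gene of each family. Of each partner list, the 2 called genes with the smallest p were to be named, and other genes were named after their values were seen. The members and lists were chosen with earlier results of these data known. Promoter sequences come from RefSeq (GRCr8), matched by symbol. Alternatives were DESeq2 1.42.0, limma-voom (limma 3.58.1), median-of-ratios size factors, no filter, a minimum count of 30, limma-trend on log2(FPKM + 0.1), with and without the filter, and on log2(FPKM + 1), each sample left out, the replicate number as a block, and summed rows per symbol.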

Additional observations from a re-analysis of the deposited data

How the results depend on the processing

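Of the 8 called guidance genes, 5 (Sema3g, Efnb2, Sema6a, Efna1 and Sema6b) kept their direction and call under all 16 alternatives, while Epha2 lost its call in 3, Ephb1 in 6 and Plxnd1 in 8. With 1 sample left out, 1 to 4 guidance genes were higher and 4 to 7 lower in MCT lung. Over all genes the counts were then 481 to 1394 higher and 212 to 978 lower, and over the partner genes 2 to 8 higher and 0 to 7 lower. With DESeq2, 6 guidance genes were higher, 1182 of all genes were lower and 9 partner genes were lower. On each of the 3 FPKM scales 1 partner gene was lower. Sema3c, never called, ran from -0.06 to 0.15 (log2) with 1 sample left out, and changed sign without MCT replicate 2 (-0.0586) and without control replicate 3 (-0.06). The cause of these changes was not tested. In a fit with the replicate block 8 guidance genes were called, of which 6 were among the 8 called without it: Ephb1 and Plxnd1 dropped out, and Plxnb1 and Sema7a came in. The numbers are not shown to pair the samples, since samples of the same number correlated at -0.06, -0.07 and -0.00 in their deviations from the group means. Genes with few reads limit what can be said: 7 members were not tested.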

Other observations

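The 7 guidance genes with too few reads to test were Epha5, Epha8, Epha10, Efna3, Plxnb3, Robo3 and Slit1. Epha10 had 12, 1 and 4 counts in MCT replicates 1 to 3, against 0, 1 and 0 in control replicates 1 to 3. Epha8 had 3, 0 and 9 counts in MCT replicates 1 to 3, against 0, 1 and 0 in control replicates 1 to 3. Efna3 had 4, 6 and 3 counts in MCT replicates 1 to 3, against 0, 2 and 0 in control replicates 1 to 3, so that all 3 MCT samples held more counts than any control for this gene alone among the 7. In total, Robo3 had 5 counts in MCT samples and 12 in control samples, Epha5 10 and 14, Plxnb3 4 and 4, and Slit1 1 and 2.

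Efna1, Efna3 and Efna4 stand next to one another among the protein-coding genes of RefSeq's rat table, as do Sema3a and Sema3d. Efna1 fell by 0.87 (log2), while Efna4 had a log2 fold change of 0.18 and was not called (adjusted p = 0.653, edgeR).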
